A study of Mus musculus with 31 samples.

Results

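Keratins build the intermediate filaments of epithelial cells, and 10 of their genes were examined in mouse squamous cell carcinoma (SCC) cells with and without a working stress switch on the translation factor eIF2α. These were the basal keratins Krt5 and Krt14, the simple keratins Krt8, Krt18, Krt7 and Krt19, and the stress keratins Krt6a, Krt6b, Krt16 and Krt17. They were chosen by name, as the usual markers of these 3 epithelial states, with earlier results of these data known. All 10 were listed among the 20704 genes of the ribosome-protected fragment (RPF) table and the 24593 genes of the total RNA table. The RPF table holds footprints of translating ribosomes, and the total RNA table holds the transcripts of the same cells.

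All cells belonged to a mouse SCC line with HRasG12V and an eGFP reporter. The sample labels give their TgfbrII genotype as fl/fl, whereas the paper writes its SCC keratinocytes as deleted for this gene, so the state of the allele is uncertain. In every group the endogenous Eif2s1 alleles, which encode eIF2α, had been ablated by CRISPR and replaced by a lentiviral, myc-tagged copy under the PGK promoter. That copy was wild type in S51 cells and carried the S51A change in S51A cells, in which serine 51 cannot be phosphorylated and the integrated stress response (ISR) cannot start from eIF2α. Cells in Elow medium received DMSO (vehicle) or 100 nM bortezomib, a proteasome inhibitor, for 4.5 h by the sample labels, although another source has 4 h. There were 31 libraries in 4 groups: 3 RPF libraries of S51 vehicle, 4 RPF libraries of each other group and 4 total RNA libraries of every group. The cells were single-cell clones, a pair per genotype, and no source gives the clone behind each library, so clone and genotype cannot be told apart. The sources call the replicates both technical and independent, so the p-values measure the spread between these libraries alone. These are bulk measurements, in which fewer cells that express a gene and less RNA per cell cannot be told apart.

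Keratins assemble as pairs of an acidic type I chain and a basic type II chain. Krt5 (type II) and Krt14 (type I) pair in the basal, dividing layer of stratified epithelia, and Krt8 (type II) and Krt18 (type I) pair in simple epithelia, where Krt7 and Krt19 join them. Krt6a, Krt6b (type II), Krt16 and Krt17 (type I) are low in resting epidermis between the hair follicles and are induced by wounding, irritation and hyperproliferation. Both of these classes can appear in carcinomas of the skin.

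The genes lie in 2 clusters of the GRCm38.p6 assembly, the patch release of the build mm10 named for the files. The type I genes Krt19 (chr11:100140810-100145926), Krt14 (chr11:100203162-100207510), Krt16 (chr11:100246091-100248902) and Krt17 (chr11:100256215-100261029) are neighbours on chromosome 11, all on the minus strand. The type II genes Krt7 (chr15:101412403-101427806, plus strand), Krt6b (chr15:101676023-101680293), Krt6a (chr15:101689928-101694305), Krt5 (chr15:101707069-101712905) and Krt8 (chr15:101996711-102004342) lie on chromosome 15, the last 4 on the minus strand. Krt18, although a type I gene, lies beside Krt8 at chr15:102028216-102032026 on the plus strand. Coding sequences of the 10 genes were spread over 6 to 9 exons.

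These genes are close copies of each other, and the column names of the tables give a mapping quality of 50 for the reads counted. Windows of coding sequence are shown for the stress keratins, whose reads are hardest to place. They have 29 bases, a usual footprint length, and come from RefSeq's GRCm38.p6 annotation. The first window is identical in Krt6a (coding bases 46 to 74, chr15:101694175-101694203, minus strand) and Krt6b (chr15:101680150-101680178, minus strand), so a footprint there has no unique place.
Krt6a and Krt6b, shared: tacagtgccagctcagccagagtgcctgg
The next pair, coding bases 1273 to 1301 of Krt6a (chr15:101691375-101691403) and of Krt6b (chr15:101677196-101677224), differs by the 1 base in capitals (C1287A, counted from the first coding base). Footprints there differ by that base alone, and whether such reads kept a mapping quality of 50 was not tested.
Krt6a: aaggccaaacaggaCatggccaggctgct
Krt6b: aaggccaaacaggaAatggccaggctgct
In the type I cluster, a window of Krt14 (coding bases 361 to 389, chr11:100207067-100207095) is identical in Krt16 (coding bases 337 to 365, chr11:100248526-100248554), while the matching window of Krt17 (coding bases 250 to 278, chr11:100260688-100260716) differs at the capitals (A366G, T368C and G369C in the numbering of Krt14).
Krt14 and Krt16: gagaaAgTGaccatgcagaacctcaatga
Krt17: gagaaGgCCaccatgcagaacctcaatga

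Over the whole counted coding sequence, 84.2% of the windows of Krt6a and 79.6% of those of Krt6b had an exact second copy elsewhere in the genome or in another transcript. The share was 68.9% for Krt8, mostly through Krt8-ps on chromosome 7, and 61.9% for Krt16. It was 36.3% for Krt14, 22.2% for Krt17, 22.0% for Krt5, 14.8% for Krt18, 2.33% for Krt7 and 1.60% for Krt19. At 100 bases, the read length of the run, the shares were 56.1% for Krt6a, 41.8% for Krt6b, 28.97% for Krt8 and 27.1% for Krt16, and 4.87% or less for the other 6. The coding sequences of Krt6a and Krt6b were 97.8% identical, those of Krt14 and Krt16 85.4%, and those of Krt14 and Krt17 83.9%. The level of a member with many shared windows may be too low, while a change between groups compares the same windows.

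**Figure D1:**
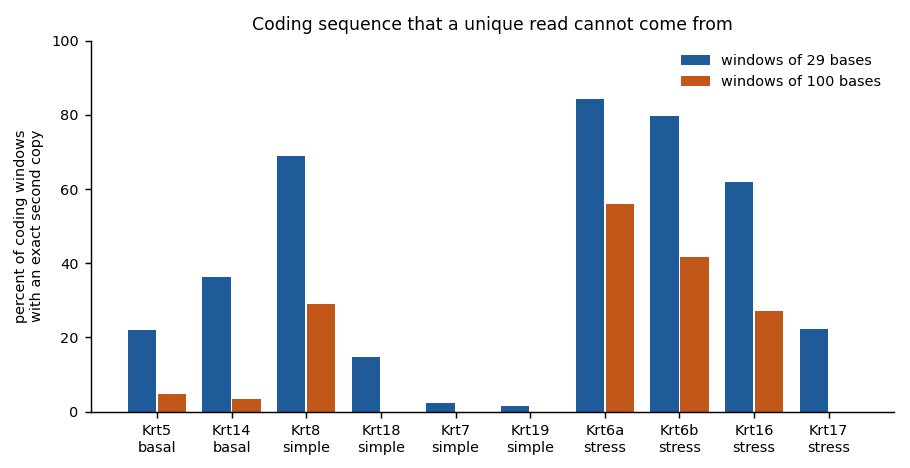
Percent of windows of each member's counted coding sequence that occur exactly at a second place, for windows of 29 bases (blue) and 100 bases (orange), by gene. Krt6a and Krt6b stand at 84.2% and 79.6% for 29 bases, and Krt7 and Krt19 at 2.33% and 1.60%.

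The RPF libraries held 1038826 to 4902237 counts each, and the total RNA libraries 18758668 to 22994713. Hspa1b, a heat shock gene that checks the treatment, lay at 25.9 to 38.6 CPM (counts scaled to a common library total) in the vehicle RPF libraries and at 596 to 1107 CPM in the bortezomib RPF libraries. Eif2s1 was present in every library (279 to 314 CPM in total RNA), and since the transgene is read with it, it does not check the genotype. The S51 bortezomib and S51A vehicle libraries were assigned with the exchange of their titles that the series record states. Of the markers, all 6 of the basal keratinocyte list (which holds Krt5 and Krt14) and all 5 of the general epithelial list were above 3 counts in every group. Those of fibroblasts, leukocytes, endothelium and melanocytes summed to at most 32.5 CPM in any library. Replicate 1 of S51 bortezomib had the lowest level of 9 of 10 members in RPF and of 8 of 10 in total RNA, and replicate 1 of S51A bortezomib that of 9 of 10 in both, so results that change without such a library are named beside it.

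The 10 genes took 2.72% ± 0.291 (SD, n = 3) of all RPF counts in S51 vehicle and 3.30% ± 0.225 (n = 4) with bortezomib. In S51A cells they took 3.06% ± 0.107 with vehicle and 3.46% ± 0.284 with bortezomib (n = 4 each). In total RNA the shares were 1.27% ± 0.0312, 1.58% ± 0.117, 1.55% ± 0.0164 and 1.63% ± 0.0827 in the same order of groups (n = 4 each). Krt5 and Krt14 supplied most of it. Per kilobase of counted coding sequence, Krt5 ranked 8th and Krt14 14th of 9442 genes by RPF level in S51 vehicle, and Krt14 ranked 11th and Krt5 38th of 11698 genes by total RNA per kilobase of exon.

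By RPF level per kilobase in S51 vehicle, the order was Krt5 (7400 ± 621 CPM per kilobase, SD, n = 3), Krt14 (6737 ± 1009), Krt6a (1681 ± 105), Krt19 (856 ± 143), Krt18 (420 ± 38.7), Krt8 (415 ± 40.3), Krt16 (228 ± 9.80), Krt17 (2.11 ± 0.886), Krt6b (1.93 ± 0.947) and Krt7 (0.0899 ± 0.156). Krt5 and Krt14, Krt18 and Krt8, and Krt17 and Krt6b were neighbours that differed by less than the larger SD of the pair. Krt7 was at 0 in 5 of 15 RPF libraries and had at most 11 counts, while 3 counts, the limit that a count of 0 allows, correspond to 0.612 to 2.89 CPM at these depths (counting error only). It was left untested in RPF. Levels were also taken over windows without a second copy, a choice made after seeing the data. Their unit is CPM per kilobase of unique window starts, the bases at which such a window begins, and differs from the unit above. Krt6a (10817 ± 677) then stood beside Krt14 (10790 ± 1616) and Krt5 (9647 ± 809). The place of Krt6a below the basal pair therefore depends on its shared sequence. Krt6b (9.66 ± 4.74) and Krt17 (2.78 ± 1.16) remained far below their near copies on this scale too.

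Several members changed place between the lines. By RPF per kilobase Krt16 moved up and Krt18 moved from rank 5 in S51 vehicle to rank 7 in S51A vehicle, and in total RNA Krt19 moved from rank 4 to rank 7. By RPF per kilobase Krt16 had rank 7 of the 10 in S51 vehicle (228 ± 9.80) and rank 5 in S51A vehicle (639 ± 71.5, n = 4), where it stood above Krt8 (597 ± 25.1) and Krt18 (556 ± 23.2). In total RNA it went from rank 7 (92.4 ± 3.65 CPM per kilobase of exon) to rank 4 (268 ± 23.9) between the same groups. Among all genes it ranked 852nd by RPF in S51 vehicle and 312th in S51A vehicle.

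**Figure D2:**
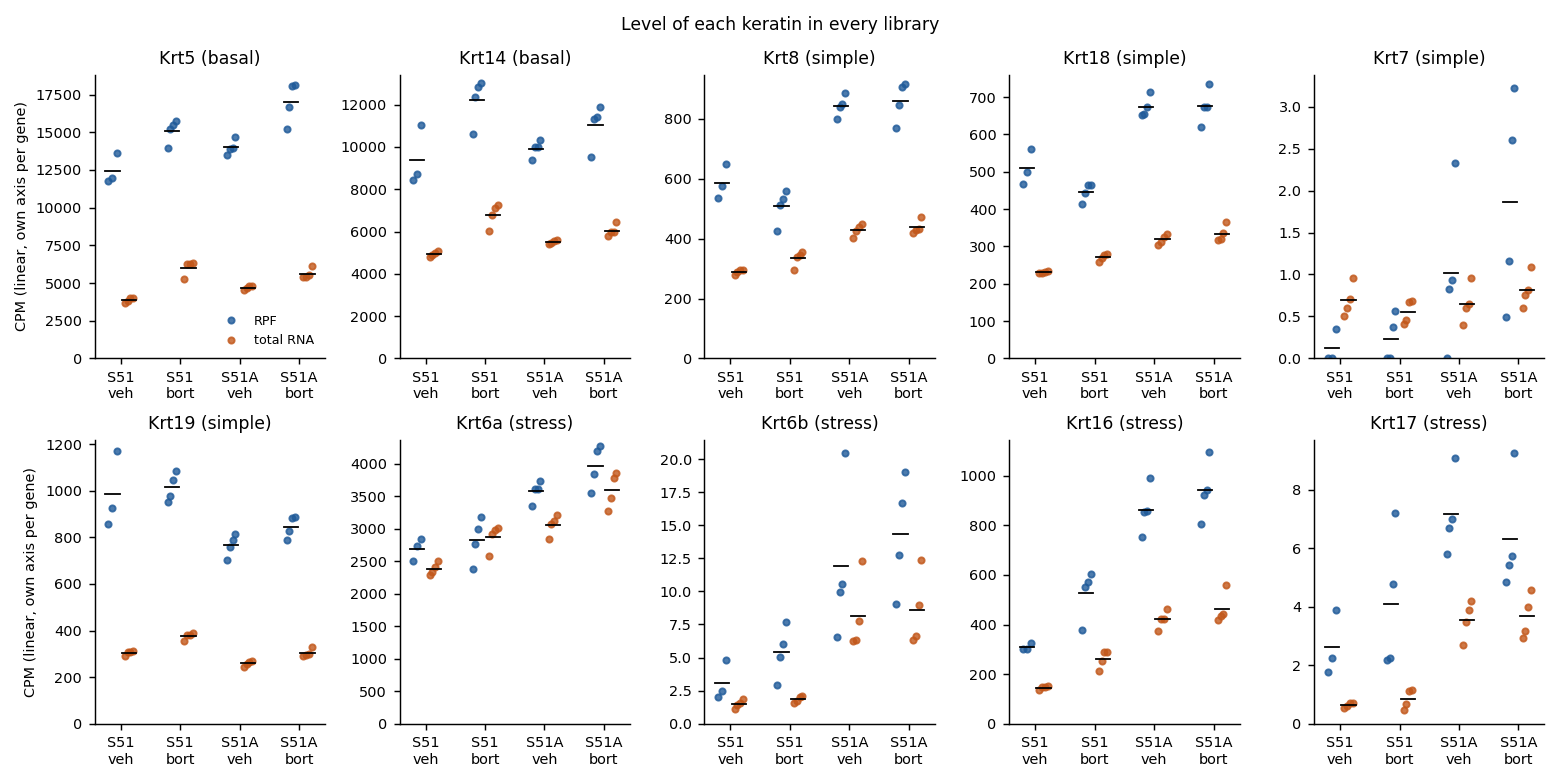
Level of each member in every library in CPM (linear axis from 0, own axis per gene) for RPF (blue) and total RNA (orange) in the 4 groups, with the group mean as a bar. Krt16, Krt6b and Krt17 are higher in S51A than in S51 cells, except that Krt17 in RPF overlaps between the lines under bortezomib. Krt8 and Krt18 are also higher by a smaller step, and Krt19 is lower.

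As a share of the summed keratin level per kilobase, the basal pair made up 78.9% ± 0.878 (n = 3) of RPF in S51 vehicle and 81.6% ± 0.660 (n = 4) with bortezomib, and in S51A cells 76.4% ± 0.459 and 77.7% ± 0.460 (n = 4 each). The stress keratins made up 10.7% ± 1.03, 9.93% ± 0.646, 14.3% ± 0.249 and 13.7% ± 0.393 in that order of groups. Every S51A library had a larger stress share than every S51 library, from 13.4% to 14.6% against 9.15% to 11.7%. The simple keratins held 9.43% ± 0.354, 7.41% ± 0.172, 9.01% ± 0.479 and 8.21% ± 0.201. In total RNA the stress share was 18.0% ± 0.319, 16.3% ± 0.153, 21.4% ± 0.681 and 21.8% ± 0.761, again higher in S51A cells. These shares are sums over the members and were not tested. They use levels per kilobase without a correction for shared sequence, which covers 84.2% of the windows of Krt6a. Over windows without a second copy, Krt6a (10817 CPM per kilobase of unique window starts) stood beside Krt14 (10790) in RPF of S51 vehicle. The size of the basal and stress shares therefore depends on the scale.

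Per kilobase, without a correction for shared sequence, the partner chains of the simple pair stood near equal levels. Krt8 over Krt18, per kilobase of RPF, was 0.990 ± 0.0685 and 0.973 ± 0.0713 in S51 cells with vehicle and bortezomib, and 1.07 ± 0.0193 and 1.09 ± 0.0516 in S51A cells. In total RNA it was between 0.956 ± 0.0587 and 1.04 ± 0.0427. Krt5 over Krt14 was 1.11 ± 0.0678, 1.03 ± 0.0420, 1.17 ± 0.0201 and 1.28 ± 0.0473 in RPF and lower, from 0.610 ± 0.0314 in S51 vehicle to 0.722 ± 0.0145 in S51A bortezomib, in total RNA. Summed over all keratins, type II over type I was 1.14 ± 0.0727, 1.05 ± 0.0291, 1.24 ± 0.00890 and 1.33 ± 0.0389 in RPF. Unequal shares of unmappable windows enter the level of these ratios but are the same in every group. At 29 bases they were 68.9% for Krt8 and 14.8% for Krt18, and 22.0% for Krt5 and 36.3% for Krt14. Over windows without a second copy, RPF of S51 vehicle held 1362 ± 132 CPM per kilobase of unique window starts for Krt8 and 505 ± 46.5 for Krt18. The near equality of the simple pair therefore depends on the scale.

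**Figure D3:**
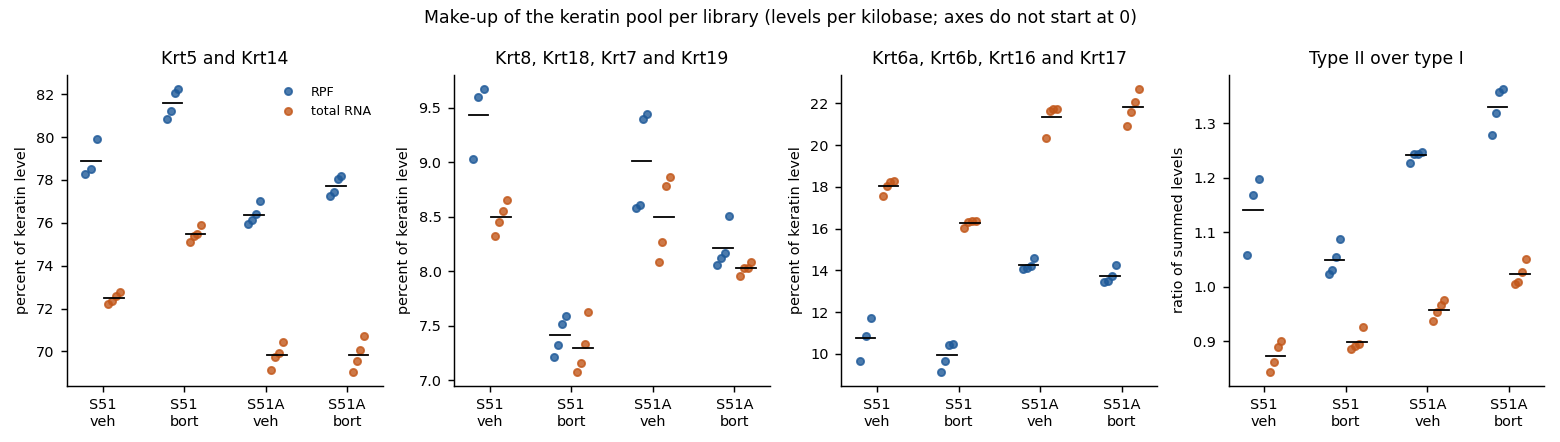
Share of the summed keratin level per kilobase held by basal, simple and stress keratins, and the ratio of type II to type I keratins, in every library (points; axes do not start at 0) with the group mean as a bar, for RPF (blue) and total RNA (orange). The stress share in RPF, not corrected for shared sequence, runs from 13.4% to 14.6% in S51A libraries and from 9.15% to 11.7% in S51 libraries.

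The first comparison asks how the keratins differ between S51A and S51 cells at rest. The stress keratins Krt16, Krt6b and Krt17 had the largest differences of the members tested, all higher in S51A cells. Krt6a, the abundant stress keratin, and the simple pair Krt8 and Krt18 were higher by less than 1.5-fold. Krt19 was the exception and was lower. Of the 9 members tested in RPF, 3 were called (edgeR adjusted p under 0.05 with over 1.5-fold difference), where 15.8% of all 9457 genes were. Krt6b and Krt17 were among these calls, and both entered the RPF test through libraries outside S51 vehicle. At the adjusted p alone, 6 members were higher and 1 lower, beside 28.6% of all genes. In total RNA, 3 of 10 members were called at a fold change above 2, beside 7.87% of 11708 genes, and 8 were higher and 1 lower at the adjusted p alone, beside 63.8%. Shares of all genes, here and below, count both directions unless a direction is named. The median log2 difference of the members was 0.41 in both RPF and total RNA, and that of all genes was 0.01 and 0.00.

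Krt16, the type I stress keratin induced in wounds and psoriatic skin, had 324, 301 and 301 CPM in the RPF libraries of S51 vehicle and 856, 991, 854 and 755 CPM in those of S51A vehicle. Every S51A library lay far above the highest S51 library. The log2 difference was 1.49 ± 0.13 (SE, edgeR adjusted p = 3.5e-08) in RPF, a 2.80-fold higher level, and 1.54 ± 0.09 (adjusted p = 1.5e-13) in total RNA, where the libraries held 150, 137, 146 and 146 CPM in S51 vehicle and 422, 464, 424 and 373 CPM in S51A vehicle. Krt16 counts were 2.94% ± 0.148 of those of Krt14 in total RNA of S51 vehicle and 7.65% ± 0.755 in S51A vehicle.

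Krt6b and Krt17 moved with Krt16 but at a level near the limit of detection. Krt6b, a type II stress keratin of the epidermis and oral mucosa, had 1.56, 1.86, 1.38 and 1.09 CPM in total RNA of S51 vehicle and 6.25, 12.3, 7.77 and 6.35 CPM in S51A vehicle. Its log2 difference was 2.48 ± 0.25 (adjusted p = 6.8e-09), with 26 to 40 counts per library in S51 vehicle and 137 to 267 in S51A vehicle. In RPF it was 2.13 ± 0.41 (adjusted p = 0.00057), from 7 to 10 counts against 14 to 97. Krt17, which is known for hair follicles and for regulating growth in wounded skin, had 0.705, 0.603, 0.551 and 0.712 CPM against 3.88, 4.20, 3.46 and 2.67 CPM in total RNA, a log2 difference of 2.45 ± 0.24 (adjusted p = 2.5e-09). Its RPF difference was 1.53 ± 0.37 (adjusted p = 0.0038), from 5 to 9 counts against 14 to 43. None of these groups overlapped. In RPF, too few S51 vehicle libraries of either gene reached the filter on low counts. Both genes entered that test through other groups, S51A vehicle among them, where they were high.

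Both low genes have a near copy that is far more abundant, and their counts were set against that copy. Krt6b counts were 0.0621% ± 0.0155 of Krt6a counts in total RNA of S51 vehicle and 0.0647% ± 0.0122 with bortezomib, against 0.267% ± 0.0923 and 0.237% ± 0.0664 in S51A cells. Krt17 counts were 0.0130% ± 0.00167, 0.0124% ± 0.00472, 0.0647% ± 0.0128 and 0.0603% ± 0.0100 of Krt14 counts in the same order. The ratio was higher in S51A than in S51 cells for both, and whether sequence differences between the lines or errors in reads of the near copy enter these few counts was not tested.

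Krt6a, the abundant type II stress keratin, had 2508, 2736 and 2837 CPM in RPF of S51 vehicle and 3341, 3734, 3610 and 3602 CPM in S51A vehicle. The log2 difference was 0.41 ± 0.09 (adjusted p = 0.0017) in RPF and 0.36 ± 0.05 (adjusted p = 1.2e-06) in total RNA, with no overlap in either, but under the fold that a call needs. Krt6a and Krt16 can pair, and their RPF differences were 0.41 and 1.49.

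The simple pair was higher in S51A cells too. Krt8 had 536, 648 and 577 CPM in RPF of S51 vehicle and 838, 848, 887 and 801 CPM in S51A vehicle, a log2 difference of 0.52 ± 0.09 (adjusted p = 0.00027). Krt18, its partner, had 500, 560 and 468 CPM against 656, 675, 714 and 653 CPM, a log2 difference of 0.41 ± 0.08 (adjusted p = 0.00092). In total RNA the differences were 0.57 ± 0.05 for Krt8 (adjusted p = 2.7e-10) and 0.47 ± 0.04 for Krt18 (adjusted p = 4.6e-10). Krt19, the shortest keratin, found in simple epithelia and in hair follicle stem cells, went the other way, from 859 to 1172 CPM in RPF of S51 vehicle to 703 to 813 CPM in S51A vehicle (log2 difference -0.36 ± 0.09, adjusted p = 0.0057) and by -0.24 ± 0.04 in total RNA (adjusted p = 1.8e-05). Krt7 had 0.394 to 0.958 CPM in the total RNA of both vehicle groups and a log2 difference of -0.09 ± 0.29 (adjusted p = 0.81).

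The basal pair differed least of the members tested in RPF. In total RNA, Krt5 was higher in S51A vehicle by 0.28 ± 0.05 (adjusted p = 3e-05) and Krt14 by 0.16 ± 0.04 (adjusted p = 0.0026). In RPF the differences were 0.17 ± 0.07 for Krt5 (adjusted p = 0.08) and 0.08 ± 0.09 for Krt14 (adjusted p = 0.56), and neither passed the test. Without the RPF S51 vehicle replicate 2, which had the highest level of both, they were 0.24 (adjusted p = 0.0035) and 0.21 (adjusted p = 0.027).

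Under bortezomib the simple and stress keratins still differed between the lines. In RPF, 4 of 9 members were called, each of them higher in S51A cells, beside 17.7% of all genes (10% higher and 7.66% lower). At the adjusted p alone, 5 were higher and 1 lower, beside 31.5%. In total RNA, 2 of 10 were called, beside 8.28%, and 6 were higher and 2 lower at the adjusted p alone, beside 65.7%. Krt8 had 426, 513, 532 and 559 CPM in RPF of S51 bortezomib and 770, 916, 846 and 906 CPM in S51A bortezomib, with no overlap and a log2 difference of 0.76 ± 0.09 (adjusted p = 1.1e-06). Krt18 had 413, 465, 443 and 464 CPM against 620, 672, 673 and 735 CPM, a log2 difference of 0.60 ± 0.08 (adjusted p = 5.1e-06). The call of Krt18 missed the fold without the RPF S51 vehicle replicate 3, S51 bortezomib replicate 1 or S51A bortezomib replicate 4. It also missed the fold under scaling by library totals (log2 difference 0.55). In total RNA the differences were 0.39 ± 0.05 for Krt8 (adjusted p = 1.1e-07) and 0.30 ± 0.04 for Krt18 (adjusted p = 5.8e-07).

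Krt16 was higher in S51A bortezomib than in S51 bortezomib by 0.84 ± 0.12 in RPF (adjusted p = 1.4e-05) and by 0.83 ± 0.08 in total RNA (adjusted p = 5e-09). Krt6b was higher by 1.37 ± 0.39 in RPF (adjusted p = 0.0097) and 2.21 ± 0.25 in total RNA (adjusted p = 2.4e-08). Krt17 was higher by 2.10 ± 0.23 in total RNA (adjusted p = 1.6e-08), while its RPF difference of 0.47 ± 0.37 (adjusted p = 0.36) did not pass. Krt6a was higher by 0.48 ± 0.08 in RPF (adjusted p = 0.00011) and Krt19 lower by -0.26 ± 0.09 (adjusted p = 0.026), a result lost without any 1 of 4 RPF libraries (S51 bortezomib replicate 2 or 4, S51A bortezomib replicate 1 or 3), where the adjusted p lay between 0.062 and 0.084. Krt14 was lower in total RNA by -0.17 ± 0.04 (adjusted p = 0.0015), while the value of Krt5 was -0.10 ± 0.05 (adjusted p = 0.071) and passed only without the total RNA S51 bortezomib replicate 1 (-0.17, adjusted p = 0.0012) or S51A bortezomib replicate 2 (-0.15, adjusted p = 0.011) among the fits that left out 1 library. In RPF, Krt5 had 0.17 ± 0.07 (adjusted p = 0.051) and passed without the S51 vehicle replicate 2 (adjusted p = 0.007) or the S51A bortezomib replicate 1 (adjusted p = 0.013), and Krt14 had -0.14 ± 0.08 (adjusted p = 0.20) and passed without the same S51 vehicle library (-0.15, adjusted p = 0.043). Each comparison shares its groups with others, S51 vehicle for instance with the bortezomib response, so their values are not independent.

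The next question is how the keratins respond to proteasome inhibition. In S51 cells, which can start the ISR, 7 of 10 members rose in total RNA at the adjusted p alone and 0 were called, beside 59.8% and 4.99% of all genes. In RPF, only Krt16 of the 9 members tested was called (beside 18.6% of all genes), and Krt5, Krt14 and Krt16 rose at the adjusted p alone (beside 30.8%). The median log2 change of the members was 0.28 in RPF and 0.32 in total RNA, where those of all genes were 0.00 and -0.01. The keratin transcripts that did not pass in total RNA were the 3 lowest, Krt7, Krt6b and Krt17.

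Krt16 changed most among the abundant members. Its RPF libraries held 324, 301 and 301 CPM in S51 vehicle and 379, 603, 571 and 552 CPM in S51 bortezomib, and its total RNA libraries 150, 137, 146 and 146 CPM and 212, 288, 287 and 253 CPM. Replicate 1 of bortezomib was the lowest of its group in both kinds of library, and it lay above every vehicle library. The log2 change was 0.77 ± 0.13 in RPF (adjusted p = 0.00012), a 1.71-fold rise, and 0.84 ± 0.09 in total RNA (adjusted p = 8.2e-09), a 1.79-fold rise.

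The basal pair rose as well. Krt5 had 3993, 3647, 3784 and 4011 CPM in total RNA of S51 vehicle and 5240, 6311, 6228 and 6290 CPM in S51 bortezomib, a log2 change of 0.64 ± 0.05 (adjusted p = 7.7e-11). Krt14 had 4785, 4909, 4977 and 5059 CPM against 6026, 6785, 7100 and 7261 CPM, a log2 change of 0.46 ± 0.04 (adjusted p = 1.7e-09). In RPF the changes were 0.28 ± 0.07 for Krt5 (adjusted p = 0.0054), whose groups did not overlap, and 0.38 ± 0.09 for Krt14 (adjusted p = 0.0034), whose groups did.

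The simple pair showed opposite signs in the 2 kinds of library. In total RNA, Krt8 rose by 0.21 ± 0.05 (adjusted p = 0.00073) and Krt18 by 0.23 ± 0.04 (adjusted p = 3.1e-05). In RPF the values were -0.21 ± 0.09 for Krt8 (adjusted p = 0.10) and -0.19 ± 0.08 for Krt18 (adjusted p = 0.09), neither of which passed, although all 4 bortezomib libraries of Krt18 lay below the 3 vehicle libraries and it passed without the RPF S51 vehicle replicate 3 (-0.27, adjusted p = 0.022). Scaling by library totals alone, which lowered the median change of all genes in total RNA by 0.15 on the log2 scale, left rises of 0.05 for Krt8 (adjusted p = 0.34) and 0.08 for Krt18 (adjusted p = 0.082), so their rise in total RNA depends on the scaling. Krt19 rose in total RNA by 0.30 ± 0.04 (adjusted p = 6e-07) and Krt6a by 0.27 ± 0.05 (adjusted p = 6.4e-05), while their RPF values of 0.04 ± 0.09 and 0.07 ± 0.09 (adjusted p = 0.76 and 0.57) did not pass.

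In S51A cells fewer members rose. In total RNA, Krt5 rose by 0.25 ± 0.05 (adjusted p = 0.00013), Krt14 by 0.14 ± 0.04 (adjusted p = 0.0093), Krt19 by 0.23 ± 0.04 (adjusted p = 3.9e-05) and Krt6a by 0.23 ± 0.05 (adjusted p = 0.00039). That makes 4 of 10 members at the adjusted p alone and 0 called, beside 56.4% and 4.18% of all genes. In RPF only Krt5 rose, by 0.28 ± 0.07 (adjusted p = 0.0038), which makes 1 of 9 at the adjusted p alone and 0 called, beside 20.6% and 10.9%. Krt16 stood at 856, 991, 854 and 755 CPM in RPF of S51A vehicle and 806, 1097, 923 and 942 CPM in S51A bortezomib, overlapping groups with a log2 difference of 0.12 ± 0.12 (adjusted p = 0.50). Krt8 and Krt18 had RPF differences of 0.03 ± 0.09 and 0.00 ± 0.08 (adjusted p = 0.86 and 0.99). Krt14 in RPF had 0.15 ± 0.08 (adjusted p = 0.21) and passed without the S51 vehicle replicate 2 (0.16, adjusted p = 0.038). Its rise in total RNA was lost under scaling by library totals (0.02, adjusted p = 0.68) and without the total RNA S51A bortezomib replicate 2 (0.10, adjusted p = 0.051).

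**Figure D4:**
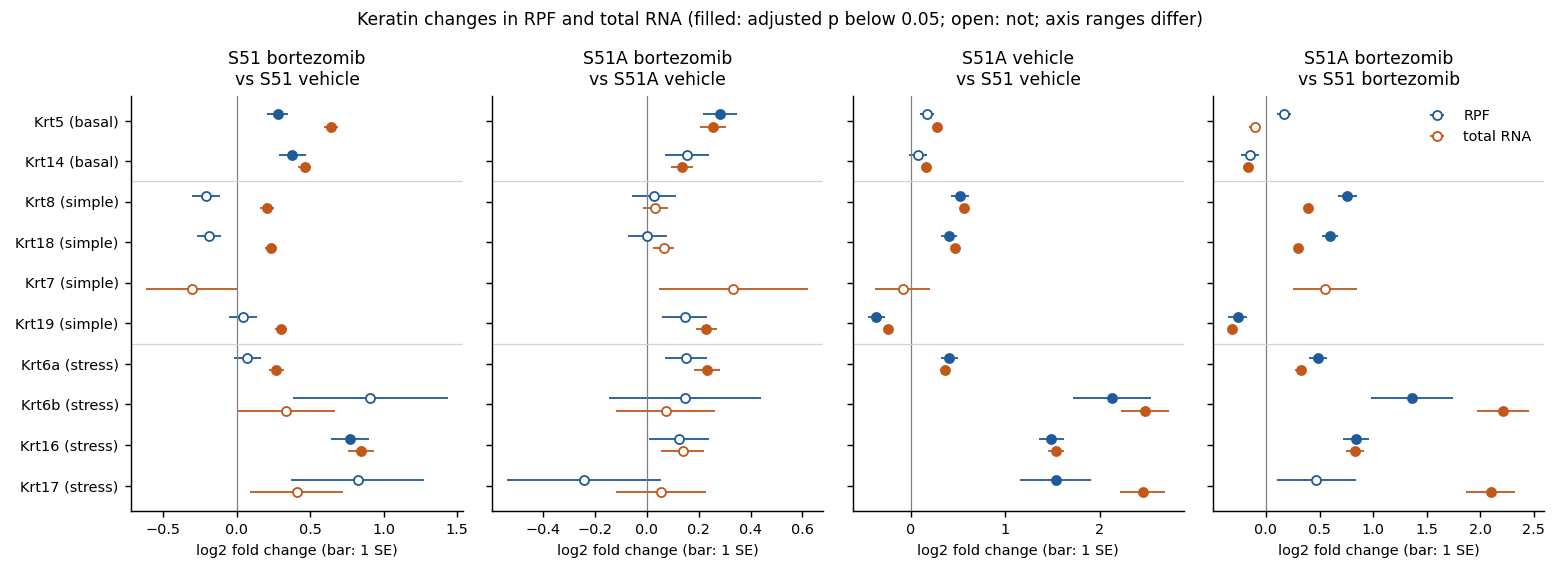
Log2 fold change of each member (points, with 1 SE as a bar) in RPF (blue) and total RNA (orange) for the 4 comparisons of groups, filled where the edgeR adjusted p is below 0.05 (axis ranges differ between panels). The stress keratins Krt6b, Krt16 and Krt17 lie farthest from 0 in S51A against S51 vehicle, and in S51 bortezomib Krt8 and Krt18 lie below 0 in RPF (-0.21 and -0.19, open points) and above it in total RNA (0.21 and 0.23).

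The difference between the 2 responses was tested directly, as the S51 response minus the S51A response. In total RNA the rise was larger in S51 cells for Krt16 by 0.70 ± 0.12 (adjusted p = 0.00017), for Krt5 by 0.39 ± 0.07 (adjusted p = 0.00039), for Krt14 by 0.33 ± 0.06 (adjusted p = 0.00047) and for Krt18 by 0.17 ± 0.06 (adjusted p = 0.041). These were 4 of 10 members at the adjusted p alone and 0 called, beside 21.6% and 0.478% of all genes. The result for Krt18 was lost under scaling by library totals (0.13, adjusted p = 0.092). It was also lost in 11 of 16 fits that each left out 1 library, S51A bortezomib replicate 1 among them (0.14, adjusted p = 0.089). Krt8 had 0.17 ± 0.07 (adjusted p = 0.07) and passed in 3 of those fits, without S51 bortezomib replicate 1, S51A vehicle replicate 4 or S51A bortezomib replicate 2 (adjusted p = 0.0066 to 0.035). In RPF 0 of 9 members passed either rule in edgeR, beside 2.35% and 1.86% of all genes, with 1 at an unadjusted p under 0.05 (Krt16) and 1 of the 7 that DESeq2 gave an adjusted p. The nearest was Krt16, at 0.65 ± 0.17 with an adjusted p of 0.051, whose adjusted p ran from 0.0045 to 0.12 over 21 other settings and was below the threshold in 7 of them, among these without the RPF S51 bortezomib replicate 1 (0.77, adjusted p = 0.0045), without the S51 vehicle replicate 2 (0.63, adjusted p = 0.0055) and without the S51A bortezomib replicate 2 (0.71, adjusted p = 0.044). Without that S51 vehicle library the RPF difference of Krt14 also passed (0.35, adjusted p = 0.016, against 0.22 and 0.40 with it).

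Translational efficiency (TE), the RPF level relative to total RNA, was compared in 1 model over both kinds of library. In S51 vehicle the TE of Krt5 was at percentile 78.4 of 9404 genes and that of Krt19 at percentile 76.1, whereas Krt8 (54.9), Krt18 (54.3), Krt16 (51.9) and Krt14 (49.4) lay near the median and Krt6a at percentile 29.9. The share of unmappable sequence differs between footprints and longer reads (84.2% at 29 bases against 56.1% at 100 bases for Krt6a), which enters these ranks, while the changes below compare each gene with itself.

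With bortezomib in S51 cells, TE fell for the simple pair and for Krt5. The log2 changes were -0.42 ± 0.09 for Krt18 (adjusted p = 0.0013), -0.41 ± 0.11 for Krt8 (adjusted p = 0.0092) and -0.36 ± 0.09 for Krt5 (adjusted p = 0.006). These were 3 of 9 members at the adjusted p alone and 0 called at 1.5-fold, beside 9.65% and 5.28% of all genes. Krt14, the partner of Krt5, had -0.08 ± 0.10 (adjusted p = 0.68) and Krt16 -0.07 ± 0.17 (adjusted p = 0.84). Krt19 had -0.26 ± 0.10 (adjusted p = 0.11) and passed without the RPF S51 vehicle replicate 3 (-0.38, adjusted p = 0.0069). Krt6a had -0.20 ± 0.10 (adjusted p = 0.27). It passed with a term for the replicate number (-0.22, adjusted p = 0.035) or for the lysate (-0.23, adjusted p = 0.045). In percentiles, Krt8 went from 54.9 to 39.9, Krt18 from 54.3 to 38.9 and Krt5 from 78.4 to 67.9. Under scaling by library totals alone the TE changes of Krt5 and Krt8 were -0.21 (adjusted p = 0.092) and -0.26 (adjusted p = 0.082).

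In S51A cells TE changed for 0 of 9 members with bortezomib under either rule, beside 1.35% of all genes at the adjusted p alone and 0.987% called, with 0 in edgeR at an unadjusted p under 0.05 and 0 of 7 in DESeq2. Krt8 had -0.00 ± 0.10, Krt18 -0.06 ± 0.08 and Krt5 0.03 ± 0.09 (adjusted p = 1.0 for each). The test of the difference between the responses gave 0 of 9 under either rule in edgeR, beside 1.72% and 1.29% of all genes, 3 at an unadjusted p under 0.05 and 1 of 7 (Krt18) in DESeq2. The values were -0.41 ± 0.15 for Krt8 (adjusted p = 0.19), -0.39 ± 0.12 for Krt5 (adjusted p = 0.11) and -0.36 ± 0.12 for Krt18 (adjusted p = 0.16). The fall in S51 cells was therefore not shown to differ from the response of S51A cells. The difference passed without the RPF S51 vehicle replicate 3 for Krt18 (-0.43, adjusted p = 0.031) and Krt5 (-0.44, adjusted p = 0.044), and for Krt5 also without the RPF S51A bortezomib replicate 1 (adjusted p = 0.045) or the total RNA S51 bortezomib replicate 1 (adjusted p = 0.034). Between the lines at rest, 0 of 9 members passed in TE under either rule, beside 0.106% and 0.0849% of all genes, with 0 in edgeR at an unadjusted p under 0.05 and 0 of 7 in DESeq2. Under bortezomib, TE was higher in S51A than in S51 cells for Krt8 (0.36 ± 0.10, adjusted p = 0.023), Krt18 (0.30 ± 0.09, adjusted p = 0.029) and Krt5 (0.28 ± 0.09, adjusted p = 0.047), and lower for Krt17 (-1.65 ± 0.48, adjusted p = 0.03).

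Those 4 members at the adjusted p alone stood beside 6.40% of all genes, and Krt17, the 1 called, beside 3.08%. The call of Krt17 rested on 3 to 19 RPF counts per S51 bortezomib library and was lost in 6 of 31 fits that left out 1 library. The adjusted p was 0.43 without the RPF S51 bortezomib replicate 3, which held the highest level of its group (7.19 CPM), and 0.053 to 0.067 without RPF S51 bortezomib replicate 2, RPF S51A bortezomib replicate 1 or 4, or total RNA S51 bortezomib replicate 1 or 4. The difference of Krt5 was lost in 23 of 31 such fits, that of Krt18 in 7 and that of Krt8 in 4, and all 3 higher values lost the threshold under scaling by library totals (adjusted p = 0.099 to 0.21). All 3 were lost without the RPF S51 bortezomib replicate 1 (adjusted p = 0.071 to 0.11). Without the total RNA S51A bortezomib replicate 1, Krt5 (adjusted p = 0.093) and Krt18 (adjusted p = 0.066) were lost.

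**Figure D5:**
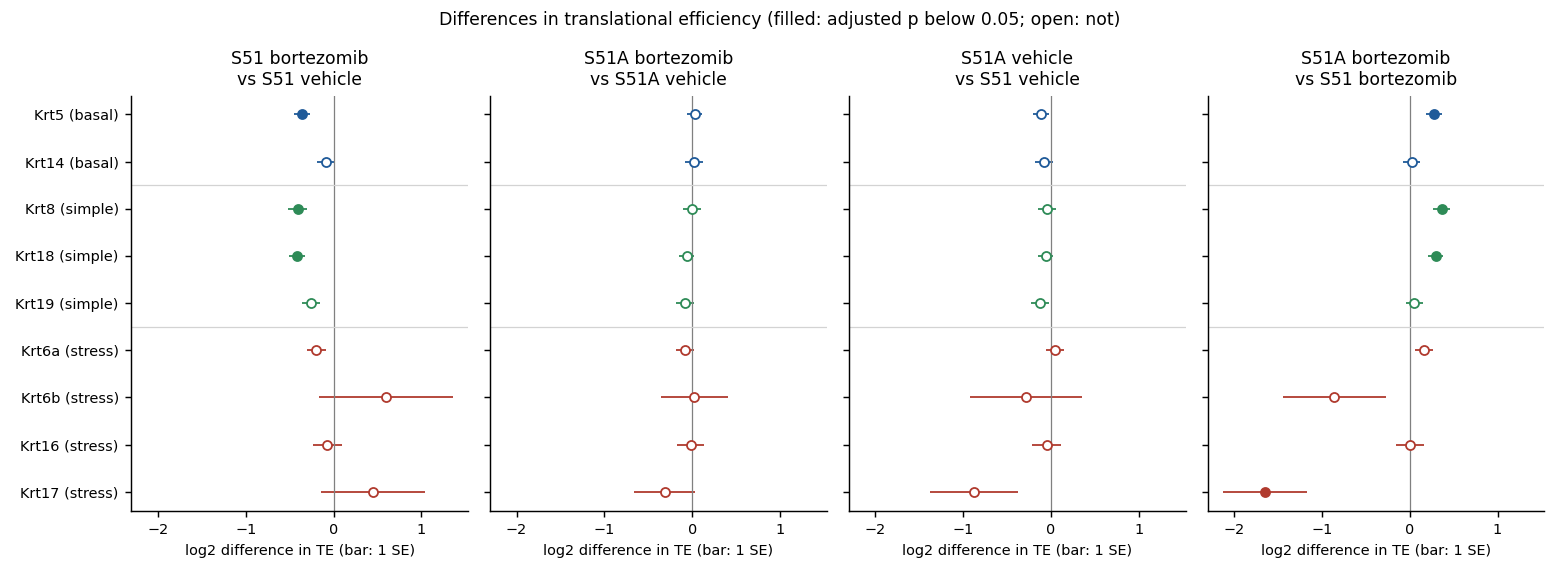
Log2 difference in TE of the 9 members tested (points, with 1 SE as a bar; same axis in all panels), coloured by basal, simple and stress class and filled where the edgeR adjusted p is below 0.05. Krt5, Krt8 and Krt18 lie at -0.36, -0.41 and -0.42 with bortezomib in S51 cells and near 0 in S51A cells, and the bars of Krt6b and Krt17 are the widest.

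The genes around the keratin filaments were read from 4 lists, each fixed with results of these data known and described by counts alone. The shares of all genes called in RPF, in either direction, were 15.8% for S51A against S51 vehicle, 17.7% for the lines under bortezomib, 18.6% for bortezomib in S51 cells and 10.9% in S51A cells. Of 44 other keratin genes, 7 were tested in RPF, and 2 were called higher and 2 lower in S51A vehicle. Krt20, a keratin of gut, urothelium and Merkel cells, was the largest difference, at 128 ± 11.3 CPM in RPF of S51 vehicle (n = 3) and 18.5 ± 3.13 in S51A vehicle (n = 4), a log2 difference of -2.80 ± 0.13 (adjusted p = 2.4e-12). Krt15, a keratin of basal and hair follicle bulge cells, was also lower in S51A vehicle (-1.06 ± 0.32, adjusted p = 0.015), while Krt80 (0.80 ± 0.21, adjusted p = 0.0057) and Krt78 (1.62 ± 0.48, adjusted p = 0.014) were higher. Under bortezomib the same 4 were called in the same directions between the lines. With bortezomib in S51 cells, Krt15 rose (0.91 ± 0.30, adjusted p = 0.025) and Krt80 fell (-1.11 ± 0.28, adjusted p = 0.0039), and in S51A cells Krt13 rose (1.01 ± 0.31, adjusted p = 0.022).

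Of 20 genes of the junctions that anchor keratins, desmosomes between cells and hemidesmosomes to the matrix, 4 were called higher (9.19% of all genes were) and 0 lower (6.62%) in RPF of S51A vehicle. These were the desmosomal cadherins Dsc2 (1.33 ± 0.14, adjusted p = 2.6e-07) and Dsg2 (1.29 ± 0.14, adjusted p = 4.2e-07), the integrin chain Itga6 (0.88 ± 0.08, adjusted p = 4.8e-08) and desmoplakin Dsp (0.70 ± 0.10, adjusted p = 2.5e-05), which ties keratins to desmosomes. The median over the list was 0.18, beside 0.01 over all genes. Bortezomib raised Dsp in S51 cells (0.70 ± 0.10, adjusted p = 2.6e-05) and lowered Pkp4 (-0.63 ± 0.18, adjusted p = 0.011), and in S51A cells it lowered Dst, a hemidesmosomal linker (-0.75 ± 0.10, adjusted p = 6.6e-06), and Pkp4 (-0.64 ± 0.15, adjusted p = 0.0046).

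Of 11 other intermediate filament genes, 5 were tested in RPF and 2 were lower in S51A vehicle, the mesenchymal filament gene Vim (-2.45 ± 0.19, adjusted p = 4.9e-09) and the lamin gene Lmnb2 (-1.08 ± 0.15, adjusted p = 1.8e-05), with 0 higher (6.62% of all genes were called lower). A list of 7 markers of a mesenchymal shift, Vim among them, was not lower as a sum. It held 287 to 309 CPM in RPF of S51 vehicle and 314 to 361 CPM in S51A vehicle. In total RNA it held 201 to 217 and 234 to 261 CPM. With bortezomib in S51 cells Bfsp1 (-2.07 ± 0.45, adjusted p = 0.0013) and Vim (-0.67 ± 0.18, adjusted p = 0.0068) fell. Of 12 transcription factors that act on keratin genes, 3 were higher and 1 lower in RPF of S51A vehicle, namely Grhl3 (1.74 ± 0.41), Tfap2c (1.59 ± 0.24) and Ovol1 (1.15 ± 0.30) against Cebpb (-0.78 ± 0.18), with adjusted p from 4.3e-05 to 0.0068, beside 9.19% of all genes called higher and 6.62% lower. With bortezomib in S51 cells Trp63, the master factor of basal keratinocytes (-1.33 ± 0.08, adjusted p = 1.2e-10), Klf4 (-1.20 ± 0.15, adjusted p = 3.3e-06) and Tfap2a (-0.79 ± 0.16, adjusted p = 0.00072) fell in RPF and Nfe2l2, a factor of the oxidative stress response, rose (0.83 ± 0.11, adjusted p = 7.2e-06). In S51A cells Trp63 (-1.04 ± 0.08, adjusted p = 1.9e-09) and Klf4 (-1.12 ± 0.13, adjusted p = 1.8e-06) fell too, with Ovol1 (-2.69 ± 0.36, adjusted p = 1.1e-05) and Grhl2 (-0.60 ± 0.10, adjusted p = 8e-05), and Grhl3 rose (0.82 ± 0.28, adjusted p = 0.041). Ovol1 was the member of this list whose responses differed between the lines (2.72 ± 0.55, adjusted p = 0.0084). In RPF, Krt5 rose in both lines and Krt14 in S51 cells while Trp63 fell, and a link between them was not tested.

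A suprabasal marker list was higher in S51A than in S51 cells, as were Krt16, Krt6b and Krt17 (Krt17 in RPF at rest only). The list did not follow Krt16 with bortezomib. Of its 6 genes 5 were listed in the tables, and their summed level in total RNA was 269 to 289 CPM in S51 vehicle and 263 to 304 with bortezomib, against 446 to 485 and 463 to 526 in S51A cells. In RPF the sums were 463 to 615 and 329 to 381 CPM in S51 cells, where Krt16 was higher with bortezomib, and 738 to 857 and 732 to 780 CPM in S51A cells. Sbsn made up most of the total RNA sum, with means of 251, 267, 380 and 445 CPM, and Ivl, an envelope protein of differentiating keratinocytes, had means of 24.4, 10.4, 78.4 and 39.9 CPM in the same order. Krt10, an early suprabasal keratin, had total RNA means of 7.04, 5.59, 8.45 and 7.41 CPM. Krt1, the defining suprabasal keratin, had at most 3 counts in any total RNA library and Lor at most 8, and in RPF at most 1 and 22. The part of more differentiated cells in the difference between the lines was not tested.

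The genes whose pattern was most like that of a member were taken over the 16 total RNA libraries as the smallest mean absolute difference in centred log2 CPM among 5339 genes. For Krt14 they were Tln1 (0.050), Sf3b2 (0.051) and Eno1 (0.051), with Krt5 at 0.084 and the median gene at 0.20. For Krt8 they were Arhgap12 (0.053), Gsn (0.056) and Lamb3 (0.059), and its partner Krt18 stood among them at 0.058, with the median gene at 0.29. For Krt16 they were Mvp (0.14), Maged2 (0.15) and Zswim4 (0.15), closer than any other member (Krt8 at 0.37) and than the median gene (0.63). The libraries share their groups, so this likeness is a description.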

How the data were processed

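Cells, libraries and groups were as given above. The values deposited by the authors are raw whole-number counts of reads for each gene, in separate RPF and total RNA tables. Their methods name FastX for trimming, bowtie2 for alignment (mm10) and plastid for counting. Footprints were counted over coding sequence, leaving out 15 codons at its start and 5 at its end. The submitters' processing notes name featureCounts and DESeq2. Column names add repeat masking, marked duplicates, a mapping quality of 50 and footprints of 20 to 23 or 26 to 32 nucleotides. Tool versions are not given in the sources used here.

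Models were fitted with edgeR 4.0.16 under R 4.3.3 (TMM, filterByExpr with 10 and 15 counts, glmQLFit over all 4 groups, glmQLFTest, Benjamini-Hochberg adjustment over all genes tested). Calls needed an adjusted p under 0.05 with over 1.5-fold change in RPF and TE, or over 2-fold in total RNA. TE was tested on 9424 genes as the RPF difference minus the total RNA difference in 1 model. By the paper's account both kinds of library came from shared lysates, and this main model held no term for the lysate. Every value after ± beside a log2 change is its standard error, and CPM use TMM library sizes. DESeq2 1.42.0, other scalings, no filter, blocks and left-out libraries were alternatives, and the fits were tested on simulated data. All 10 members are named. From other lists, genes called in RPF were named, at most 4 per direction, comparison and list. Members and lists were chosen with earlier results of these data known. Libraries of a group differed by more than sampling noise: the smallest chi-square per gene was 1.64 over 21 RPF pairs and 2.69 over 24 total RNA pairs.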

Additional observations from a re-analysis of the deposited data

Results flagged for a closer look

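Over the members, 70 sets of 4 libraries of a group were examined (30 in RPF and 40 in total RNA), and 2, both in total RNA, held a library far from the others by Dixon's test, where chance gives about 1 in 20. Krt5 in S51 bortezomib replicate 1 lay at 5240 CPM, below the other 3 at 6228 to 6311 CPM, and Krt16 in S51A bortezomib replicate 2 lay at 559 CPM, above the other 3 at 418 to 441 CPM. These are the replicates that were lowest and highest for most members of their group: 8 of 10 members were lowest in the first and 9 of 10 highest in the second. The total RNA response to bortezomib was larger in S51 than in S51A cells by an edgeR interaction test for Krt16 (0.70 on the log2 scale), Krt5 (0.39), Krt14 (0.33) and Krt18 (0.17).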

How the results depend on the processing

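No called result changed direction under the alternatives run. The count of members called moved as follows. For RPF, the difference between the responses went from 0 to 1 (Krt16) under library totals alone, under DESeq2, without the filter on low counts and with the replicate block. The RPF response of S51 cells went from 1 to 2 with the replicate block (Krt6b, Krt16). Under library totals alone, Krt18 dropped out of the RPF calls for S51A against S51 bortezomib. For TE, S51A against S51 bortezomib went from 1 to 0 under DESeq2, which gave Krt17 no adjusted p there. For total RNA at a fold change above 1.5, the S51 response went from 0 to 2 (Krt5, Krt16) and the difference between the responses from 0 to 1 (Krt16). At that fold Krt16 (1.78-fold) also joined the total RNA calls for S51A against S51 bortezomib. With each library left out in turn, RPF counts ran from 3 to 4 for S51A against S51 at rest (4, with Krt8, without RPF S51 vehicle replicate 2) and from 3 to 4 under bortezomib, and from 0 to 1 for the difference between the responses, and the TE count for S51A against S51 bortezomib ran from 0 to 1, while the other 11 counts did not move.

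The groups share replicate numbers, but no source says what a number marks. Deviations of same-numbered libraries correlated from -0.44 to 0.56 over 21 RPF pairs (median 0.12, against -0.065 over 63 differently numbered pairs) and from 0.091 to 0.53 over 24 total RNA pairs (median 0.33, against -0.11 over 72). On average 15 of 16 total RNA and 10 of 15 RPF libraries correlated best with their own number, a hint of pairing in total RNA from the data and not from the design. Since not every pair was above 0.1, results are given without the block. RPF depth limits Krt7, Krt6b and Krt17, which had at most 11, 97 and 43 counts per library. With the replicate block, adjusted p fell under 0.05 for Krt5 in RPF of S51A against S51 (0.031 at rest, 0.011 under bortezomib) and in the TE difference between responses (0.032), among 8 such results, and 0 results lost the threshold. Scaling by library totals lowered the median total RNA change of all genes by 0.15 in S51 and by 0.12 in S51A cells on the log2 scale.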
